A study of Penicillium oxalicum with 9 samples.

Results

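A group of 5 genes annotated as sugar transporters in the cellulolytic fungus Penicillium oxalicum had higher transcript levels in the strain without prmt3 and lower levels in the strain without cxrA than in the background strain. They were POX_c04047, POX_c04185, POX_a01930, POX_c04034 and POX_f07704. They were chosen for this pattern from the same 9 libraries, so their differences between strains are given as a description, without a test. They make up 5 of 41 sugar transporter genes that the study listed as changed in at least 1 mutant, and 5 of 11082 features in the expression table. Transporter genes that the study did not list as changed are not among the 41.

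The study asked how PRMT3, a protein arginine methyltransferase, and CxrA, a transcription factor that activates cellulase and xylanase genes, act on gene expression during growth on cellulose. RNA sequencing was done on mycelium of 3 strains, each with 3 biological replicates, grown on 1% glucose for 24 h and then moved to 2% Avicel, a microcrystalline cellulose, for 24 h at 28°C. All 3 strains derive from the isolate HP7-1 and lack ku70, a gene of non-homologous end joining whose loss makes targeted deletion efficient. The background strain, Δku70;hphR+ (below Δku70), carries a hygromycin resistance marker and no other deletion, although its libraries have the genotype label WT. The strain Δprmt3;G418R+ (below Δprmt3), labelled as the POX03070 knockout, and the strain ΔcxrA;G418R+ (below ΔcxrA), labelled as the PoxCxrA knockout, each carry a further deletion with a G418 resistance marker. No complemented strain was among these libraries, and the 3 Δku70 libraries serve as controls for Δprmt3 and for ΔcxrA alike, so the 2 comparisons are not independent.

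Fungi that grow on cellulose cut it outside the cell into cellobiose and longer cellodextrins, and into glucose with the help of β-glucosidase. Sugar transporters of the major facilitator superfamily, membrane proteins that move a sugar together with protons or down its gradient, bring these products into the cell. Cellodextrin transporters belong to this superfamily, and in filamentous fungi such as Neurospora crassa they carry cellodextrins inward and take part in the induction of cellulase genes. Hemicellulose yields xylose, arabinose and short xylan fragments, which other members of the superfamily take up. The annotation of each of the 5 genes names the class of transporter and no substrate, and the sugar that each protein carries was not measured.

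Levels are given as FPKM (sequenced fragments corrected for transcript length and for the size of the library), scaled so that the median gene was equal between libraries. FPKM keep no read number, so the sequencing depth behind a value is unknown. The scale factors were 0.909 to 0.964 in Δku70, 0.822 to 0.863 in Δprmt3 and 1.23 to 1.28 in ΔcxrA, and every library had between 9846 and 10270 features above 0. The deleted genes were checked first. POX_b03080 (prmt3) was at 33.4, 24.9 and 29.1 deposited FPKM in Δku70 and at 0, 0.04 and 0 in Δprmt3, and POX_a00763, a zinc cluster gene taken as cxrA because of its values, was at 116.3, 121.2 and 90.7 in Δku70 and listed at 0 in all 3 ΔcxrA libraries, which is then no check of that label. In ΔcxrA POX_b03080 was at 65.6, 62.9 and 72.6 deposited FPKM, a log2 difference from Δku70 of 0.80 after scaling. POX_a00763 had a log2 difference of 0.20 in Δprmt3. The part of these levels in the transporter pattern was not tested. The conidiation regulator brlA, the marker of conidiophores that a mycelium sample can hold, was at 134.7 to 166.2 deposited FPKM in Δku70, 2.69 to 8.57 in Δprmt3 and 1.76 to 2.55 in ΔcxrA. Of the regulators, flbD was also lower in both mutants, while abaA was at 12.6 to 14.5 in Δku70, 3.93 to 5.57 in Δprmt3 and 21.7 to 25.7 in ΔcxrA. The part of this marker change in the transporter levels was not tested. In bulk mycelium, fewer cells with a transcript and less transcript per cell cannot be told apart.

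POX_c04047 and POX_c04185, both annotated as sugar/inositol transporters, are treated here as candidate cellodextrin transporters. They were the most abundant transcripts of the 41 transporter genes in Δku70 and in Δprmt3. The sources used here do not pair the cellodextrin transporter genes cdtC and cdtD of the study with identifiers, so whether these are that pair was not settled.

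In the 3 Δku70 libraries POX_c04047 was at 7962, 8540 and 7701 scaled FPKM. It reached 18057, 19314 and 16953 in Δprmt3, and stood at 2258, 2731 and 3698 in ΔcxrA. The strains did not overlap, and the lowest Δprmt3 library was well above the highest Δku70 library. The means were 8068 ± 429, 18108 ± 1182 and 2896 ± 734 (SD, n = 3), which made it the 10th most abundant feature of Δku70, the 5th of Δprmt3 and the 27th of ΔcxrA. The fitted level was 2.24-fold higher in Δprmt3 (log2 difference 1.17, standard error 0.23) and 2.84-fold lower in ΔcxrA (-1.51, standard error 0.23). This single gene took 0.677% to 0.749% of all FPKM in Δku70, 1.30% to 1.52% in Δprmt3 and 0.266% to 0.429% in ΔcxrA.

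POX_c04185 followed the same order at a lower level. Its scaled FPKM were 2359, 2426 and 2152 in Δku70, 4447, 5440 and 4757 in Δprmt3, and 622, 767 and 995 in ΔcxrA. Again no library of one strain reached into the range of another. The means were 2313 ± 143, 4881 ± 508 and 795 ± 188 (SD, n = 3), placing it 63rd in abundance in Δku70, 28th in Δprmt3 and 157th in ΔcxrA. It was 2.11-fold higher in Δprmt3 (log2 difference 1.07, standard error 0.18) and 2.96-fold lower in ΔcxrA (-1.57, standard error 0.18).

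**Figure D1:**
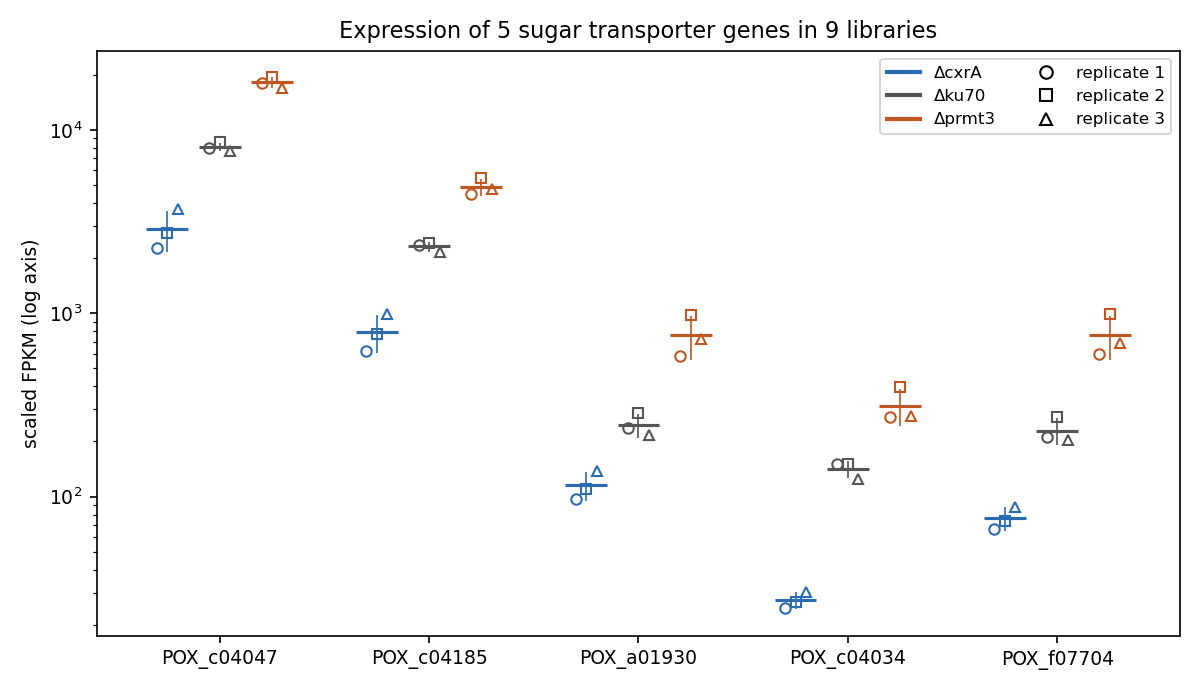
Scaled FPKM of the 5 genes on a log axis, with 1 symbol per library, a horizontal bar for the mean of 3 libraries and a vertical line for the SD. For each gene the 3 ΔcxrA libraries (blue) lie below the 3 Δku70 libraries (grey), and the 3 Δprmt3 libraries (orange) lie above them.

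The other 3 genes were less abundant, at ranks 739 (POX_a01930), 796 (POX_f07704) and 1257 (POX_c04034) of the features in Δku70. POX_a01930, annotated as a major facilitator of the sugar transporter-like kind, was at 236, 287 and 216 scaled FPKM in Δku70. It was at 582, 983 and 723 in Δprmt3 and at 97.5, 111 and 138 in ΔcxrA. Its Δprmt3 libraries were spread widely, but all of them were above Δku70. The means were 246 ± 36.2, 763 ± 203 and 115 ± 20.5 (SD, n = 3). The fitted level was 3.05-fold higher in Δprmt3 (log2 difference 1.61, standard error 0.21) and 2.14-fold lower in ΔcxrA (-1.10, standard error 0.21). Without replicate 1 of ΔcxrA or without replicate 2 of Δku70 the difference in ΔcxrA was no longer past 1 on the log2 scale, with -0.99 at its smallest.

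POX_f07704, a further sugar/inositol transporter, was close to POX_a01930 in level and in the size of its difference in Δprmt3. Its scaled FPKM were 212, 273 and 203 in Δku70, 602, 993 and 688 in Δprmt3, and 66.7, 74.0 and 88.3 in ΔcxrA. The means were 229 ± 38.1, 761 ± 205 and 76.3 ± 11.01 (SD, n = 3). Its level was 3.27-fold higher in Δprmt3 (log2 difference 1.71, standard error 0.20), the greatest of the 5 genes, and 2.99-fold lower in ΔcxrA (-1.58, standard error 0.20).

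POX_c04034, which carries the conserved site of sugar transporters in its annotation, was the least abundant of the 5. It was at 150.9, 151.1 and 124.7 scaled FPKM in Δku70, 271, 395 and 275 in Δprmt3, and only 24.8, 26.6 and 30.3 in ΔcxrA. The ΔcxrA libraries were thus close together and far below Δku70. The means were 142 ± 15.2, 314 ± 70.5 and 27.2 ± 2.83 (SD, n = 3). Its difference in Δprmt3 was 2.18-fold (log2 1.12, standard error 0.16), while its 5.20-fold lower level in ΔcxrA (-2.38, standard error 0.16) was the greatest difference of the 5 in that mutant. It moved from rank 1257 in abundance in Δku70 to rank 4845 in ΔcxrA. Without replicate 2 of Δprmt3, the highest library of that strain, the log2 difference in Δprmt3 was 0.95.

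With the study's thresholds, an adjusted p below 0.05 and a log2 difference beyond 1, all 5 genes were called higher in Δprmt3, against 3.59% of the 10578 features tested, and all 5 were called lower in ΔcxrA, against 13.2%. Both conditions together held for 0.492% of features. These counts restate the choice of the genes. The median log2 difference of the 5 genes was 1.17 in Δprmt3 and -1.57 in ΔcxrA, while the medians over all features were 0.001 and 0.057. The 3 Δprmt3 libraries were all above the 3 Δku70 libraries for all 5 genes, as they were for 20.2% of features, and the ΔcxrA libraries were all below for all 5 genes, as they were for 33.1% of features. In deposited FPKM without scaling, the libraries were separated in the same way for all 5. Together the 5 genes took 0.914% to 1.02% of FPKM in Δku70, 1.79% to 2.13% in Δprmt3 and 0.362% to 0.574% in ΔcxrA. Between the mutants, the mean in Δprmt3 was 6.14 times that in ΔcxrA for POX_c04185, 6.25 times for POX_c04047, 6.62 times for POX_a01930, 9.97 times for POX_f07704 and 11.5 times for POX_c04034.

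The size of these differences depended on the scaling, while the direction did not. On FPKM as deposited, where the median feature was shifted by -0.13 in Δprmt3 and by 0.46 in ΔcxrA on the log2 scale, 2 of the 5 genes were past both thresholds in both mutants. POX_c04185 and POX_c04034 were short of a log2 difference of 1 in Δprmt3 (0.91 and 0.96), and POX_a01930 was short of it in ΔcxrA (-0.69). Under quantile normalization, which forces all libraries to 1 distribution, 2 of the 5 were again past both. There POX_c04047 had a log2 difference of 0.26 in Δprmt3 and -0.98 in ΔcxrA. POX_f07704 was past both thresholds in both mutants under each of the 3 scalings.

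**Figure D2:**
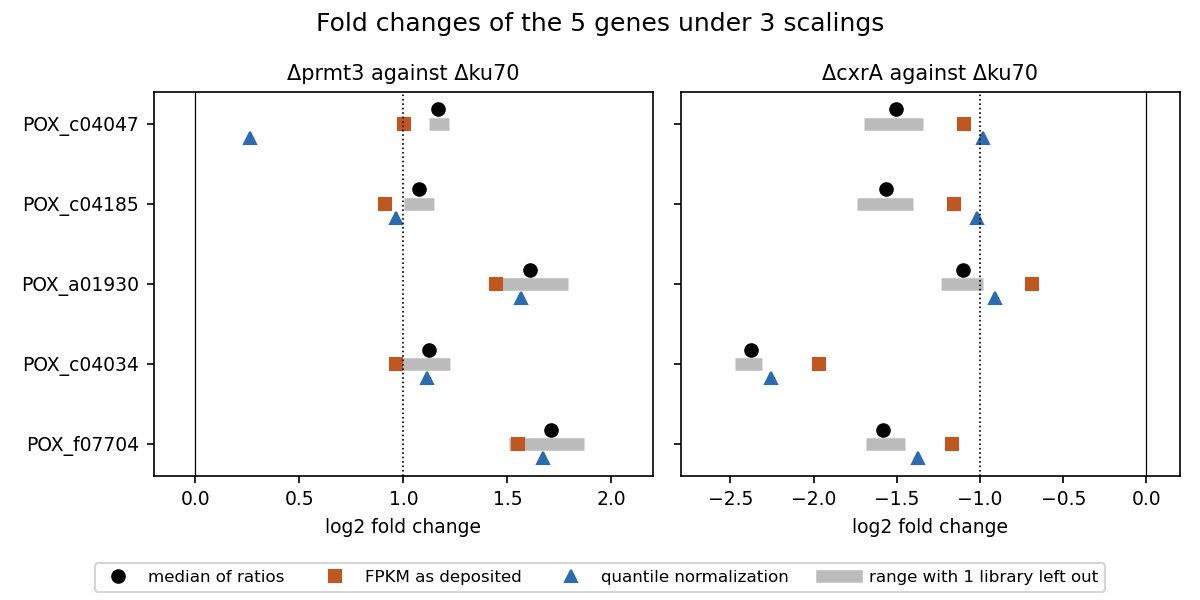
Log2 difference of each gene from Δku70 in Δprmt3 (left) and ΔcxrA (right) under 3 scalings, with the range over fits that left out 1 library in grey and dotted lines at the threshold of 1. All values keep their sign, and POX_c04047 in Δprmt3 goes from 1.17 to 0.26 under quantile normalization.

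Within each strain the 5 genes varied together from library to library. In scaled FPKM all 5 were highest in replicate 2 of Δku70, in replicate 2 of Δprmt3 and in replicate 3 of ΔcxrA. All 5 were lowest in replicate 3 of Δku70 and in replicate 1 of ΔcxrA, and 4 were lowest in replicate 1 of Δprmt3. POX_c04047 was the exception, with its lowest Δprmt3 value in replicate 3. In deposited FPKM the highest Δku70 library was replicate 2 for 3 genes and replicate 1 for POX_c04185 and POX_c04034. The scale factor of a library enters all its values, and its part in this order was not tested.

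The spread between replicates was not alike in the 3 strains. POX_c04047 and POX_c04185 had coefficients of variation of 5.32% and 6.19% in Δku70, but of 25.4% and 23.7% in ΔcxrA. POX_a01930, POX_c04034 and POX_f07704 were most variable in Δprmt3, at 26.7%, 22.5% and 27.0%, where POX_c04047 was at 6.52%. Over features whose mean FPKM reached 10, the median was 9.60% in Δku70, 10.6% in Δprmt3 and 7.17% in ΔcxrA. POX_c04034 was the steadiest of the 5 in ΔcxrA at 10.4%, also above that median.

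Across the 9 libraries, on the scale log2(scaled FPKM + 0.1), the Pearson correlation of POX_c04047 with POX_c04185 was 0.998, and that of POX_a01930 with POX_f07704 was 0.995. These values mostly follow the 3 strain means, which the choice of the genes fixed, and the points share library and scale factor. After the strain mean was taken from each value, the correlation was 0.948 for the first pair and 0.984 for the second. It was lower between the pairs, at 0.673 for POX_c04047 with POX_a01930 and 0.633 with POX_f07704, and at 0.825 and 0.761 for POX_c04185 with the same genes. POX_c04034 was nearer to POX_f07704 (0.903) and POX_a01930 (0.899) than to POX_c04185 (0.747) or POX_c04047 (0.610).

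Ratios of genes within a library are the same with or without a scale factor per library, though not under quantile normalization, and they show where the deposited FPKM of the genes moved unequally. POX_c04047 had 3.37 to 3.58 times the FPKM of POX_c04185 in Δku70, 3.55 to 4.06 times in Δprmt3 and 3.56 to 3.72 times in ΔcxrA. The candidate cellodextrin transporters thus kept nearly the same proportion in all 9 libraries. POX_f07704 had 0.896 to 0.952 of the FPKM of POX_a01930 in Δku70 and 0.952 to 1.03 in Δprmt3, but 0.642 to 0.684 in ΔcxrA, a range below all the other libraries. POX_c04034 stood apart in ΔcxrA. The ratio of POX_c04047 to it was 52.8 to 61.7 in Δku70 and 48.9 to 66.5 in Δprmt3, and 91.1 to 122 in ΔcxrA. The ratio of POX_a01930 to POX_c04034 was 1.57 to 1.90 in Δku70, 2.15 to 2.63 in Δprmt3 and 3.93 to 4.54 in ΔcxrA, with no overlap between the strains.

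**Figure D3:**
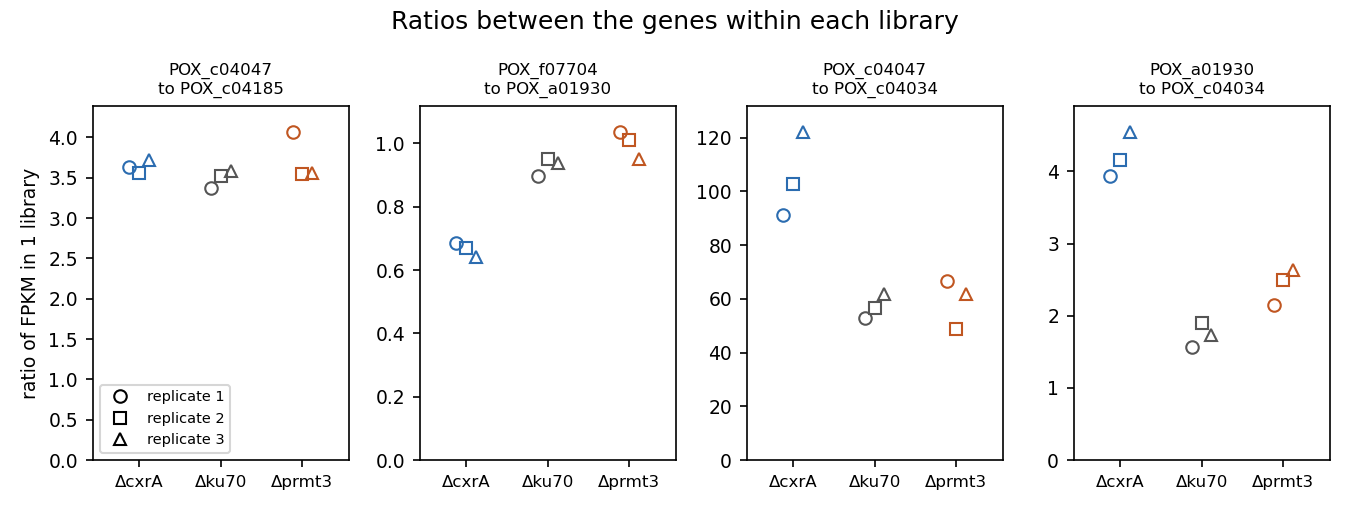
Ratio of the FPKM of a pair of the genes within each of the 9 libraries, by strain, on axes that start at 0. The ratio of POX_c04047 to POX_c04185 stays between 3.37 and 4.06, while both ratios to POX_c04034 are highest in the 3 ΔcxrA libraries.

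The study's annotation gave 36 further sugar transporter genes. These are genes that the study called in at least 1 mutant on these same libraries, so the list is not independent evidence of a direction. In Δprmt3, 8 of the 36 were called higher, 13 lower and 15 neither, with a median log2 difference of -0.25. In ΔcxrA, 8 were called higher, 16 lower and 12 neither, with a median of -0.73. Taking out the 5 genes shifts these values. Over all 41 genes, 13 were called higher and 13 lower in Δprmt3, with a median of 0.05. In ΔcxrA, 8 of the 41 were called higher and 21 lower, with a median of -1.04. The share called lower over all features was 7.51% in Δprmt3, and the share called higher in ΔcxrA was 16.4%. None of the 36 was past both thresholds in the directions of the 5 genes. This follows from the choice of the 5, which took out the genes with that pattern. Without a threshold, 13 of the 36 had a fitted log2 difference above 0 in Δprmt3 and below 0 in ΔcxrA. The signs alone were thus not particular to the 5 genes. Some of these differences were near 0, such as 0.05 for POX_c04488 in Δprmt3 and -0.15 for POX_d05540 in ΔcxrA. The share of all features with this pair of signs was not counted, so no more is read from the 13.

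Some of the 13 came near the thresholds, and they are named here after their values were seen. POX_a00613, the third most abundant transporter transcript of Δku70, had means of 1484 scaled FPKM in Δku70, 3343 in Δprmt3 and 1051 in ΔcxrA, with log2 differences of 1.18 and -0.50. In ΔcxrA it lay between POX_c04047 and POX_c04185. POX_b03270 (1.66 and -0.79) and POX_h09893 (1.53 and -0.70) were also past the threshold in Δprmt3 and short of it in ΔcxrA. POX_f07452 had the same directions but was short of the threshold in Δprmt3 instead, with 0.43 there and -2.03 in ΔcxrA. POX_f08247 likewise had 0.47 and -1.06. Of the 5 genes, those just past a threshold were POX_c04185 at 1.07 and POX_c04034 at 1.12 in Δprmt3, and POX_a01930 at -1.10 in ΔcxrA.

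**Figure D4:**
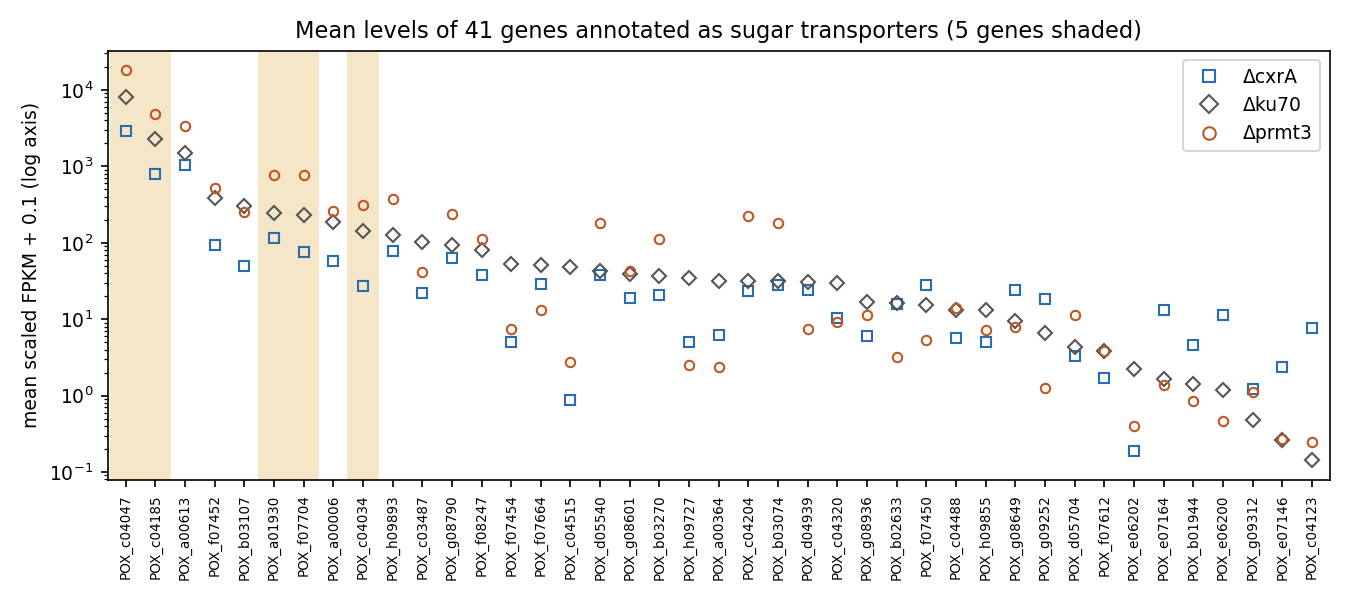
Mean scaled FPKM plus 0.1 in each strain, on a log axis, of the 41 sugar transporter genes that the study listed as changed. They are ordered by their level in Δku70, with the 5 genes shaded. POX_c04047 and POX_c04185 are at the upper end, and the other 3 lie among the 9 most abundant in Δku70.

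Position on the chromosome was not used to choose the genes, so the calls of adjacent genes are tested results. The 3 annotated genes on each side of each transporter were taken from the order of locus tags in RefSeq assembly ASM172317v3. Of 30 such positions 1 was at 0 in every library (POX_c04188), leaving 29 tested. In Δprmt3, 4 of the 29 (13.8%) were called higher and 3 (10.3%) lower, beside 3.59% and 7.51% of all features. In ΔcxrA, 3 (10.3%) were called higher and 8 (27.6%) lower, beside 16.4% and 13.2%. No test of these shares was run. Without replicate 3 of Δku70 the calls in Δprmt3 went from 7 to 4.

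POX_c04034 and POX_c04047 lie on the same sequence with 12 genes between them, and POX_c04185 is a further 136 genes away. POX_a01930, POX_c04185 and POX_f07704 each lay beside genes annotated as enzymes that break down hemicellulose or arabinan. Annotations here come only from genes the study listed as changed, so an enzyme gene outside those lists would not be seen. Upstream in tag order of POX_a01930 is a run of 3 such genes. POX_a01929, a β-xylosidase that releases xylose from xylan fragments, was at 61.1, 72.3 and 46.6 scaled FPKM in Δku70, 125.1, 133.2 and 127.0 in Δprmt3 and 78.6, 86.2 and 91.7 in ΔcxrA. Its rise in Δprmt3 passed the test (log2 1.12, standard error 0.15, adjusted p = 7.77e-04 from limma), and in ΔcxrA it was above Δku70 in all 3 libraries with a log2 difference of 0.53 that was not called. It thus differed from POX_a01930 in ΔcxrA.

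The next gene, POX_a01928, also a β-xylosidase, had a log2 difference of 0.94 in Δprmt3, short of the threshold, and fell in ΔcxrA (log2 -1.15, adjusted p = 8.34e-04 from limma), at low levels of 9.24 ± 2.28 scaled FPKM in Δku70 and 4.04 ± 0.21 in ΔcxrA (SD, n = 3). POX_a01927, annotated as an exo-α-L-1,5-arabinanase, an enzyme acting on arabinan chains, went from 50.7 ± 10.8 in Δku70 to 89.0 ± 15.8 in Δprmt3 and 17.7 ± 3.38 in ΔcxrA (SD, n = 3). Its log2 difference of 0.82 in Δprmt3 was short of the threshold, and its fall in ΔcxrA passed (log2 -1.51, adjusted p = 2.51e-04 from limma). In both genes all Δprmt3 libraries were above Δku70 and all ΔcxrA libraries below. On the other side POX_a01931, at 6.19 ± 3.74 in Δku70 and 14.1 ± 2.34 in Δprmt3 (SD, n = 3), rose in Δprmt3 (log2 1.33, adjusted p = 0.041 from limma). Its log2 difference of -0.99 in ΔcxrA was not called (limma adjusted p = 0.061). POX_a01932 fell in both mutants, with log2 differences of -1.48 in Δprmt3 and -2.67 in ΔcxrA, and POX_a01933 fell in ΔcxrA (log2 -1.31).

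Beside POX_c04185 lies POX_c04184, annotated as an endo-1,4-β-xylanase, which cuts the xylan backbone. It was at 557, 611 and 441 scaled FPKM in Δku70, 858, 1176 and 994 in Δprmt3, and 169, 195 and 228 in ΔcxrA. The strains did not overlap and stood in the order of the transporter next to it. The fall in ΔcxrA passed the test (log2 -1.44 with a standard error of 0.17, limma adjusted p = 1.29e-04). In Δprmt3 the log2 difference of 0.91 had an adjusted p of 0.0049 and was short of the fold threshold. On the other side POX_c04187 fell in ΔcxrA (log2 -2.87, limma adjusted p = 0.0028). Its scaled FPKM were 64.7, 66.3 and 38.9 in Δku70 and 4.16, 4.68 and 21.0 in ΔcxrA, so the size of this fall varied widely between replicates. POX_c04186, called lower in ΔcxrA, was near the lower end of measurement, at 2.56, 0.99 and 1.31 deposited FPKM in Δku70 and 0.99, 0 and 0 in ΔcxrA. POX_c04182, called higher in ΔcxrA, was listed at 0 in the 6 other libraries and was at 11.7, 11.1 and 9.06 deposited FPKM in ΔcxrA, so that no fold is given.

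POX_f07704 was followed by POX_f07705, annotated as an α-glucosiduronase, which removes glucuronic acid side groups, and by POX_f07706, an endo-1,4-β-xylanase. POX_f07705 was at 21.4, 26.6 and 15.2 scaled FPKM in Δku70, 60.9, 44.9 and 44.1 in Δprmt3 and 20.1, 22.3 and 26.0 in ΔcxrA. It rose in Δprmt3 (log2 1.26, standard error 0.22, adjusted p = 0.0032 from limma), and its ΔcxrA libraries overlapped with Δku70 (log2 0.14, adjusted p = 0.59 from limma). POX_f07706 rose from 27.0 ± 7.39 in Δku70 to 60.5 ± 7.28 in Δprmt3 (SD, n = 3), a log2 difference of 1.19 (limma adjusted p = 0.0027, standard error 0.20). It was at 15.5 ± 1.66 (SD, n = 3) in ΔcxrA, with all 3 libraries below Δku70. That log2 difference of -0.77 (limma adjusted p = 0.0092) was short of the fold threshold alone. Both genes thus rose in Δprmt3, where POX_f07704 was also higher, and neither was called lower in ΔcxrA.

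No neighbour of the remaining transporters had an enzyme annotation here, but the 6 genes beside POX_c04047 had no annotation at all. The kinds of genes around the transporters thus cannot be compared. Of the 6 genes beside POX_c04047, 1 was called, POX_c04044, which rose in ΔcxrA (log2 1.40, adjusted p = 2.77e-05 from limma). Beside POX_c04034, POX_c04035 fell in Δprmt3 (log2 -1.31). POX_c04032 fell in Δprmt3 (log2 -1.05) and rose in ΔcxrA (log2 1.52), and POX_c04031 fell in ΔcxrA (log2 -1.55). No neighbour of these 2 transporters was called higher in Δprmt3, and none of the 29 neighbours was called higher in Δprmt3 and lower in ΔcxrA. That double call held for 0.492% of all features, so its absence among 29 genes is no result about them. POX_a01927, POX_a01928, POX_c04184 and POX_f07706 had both directions and were short of the fold threshold in 1 mutant only.

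**Figure D5:**
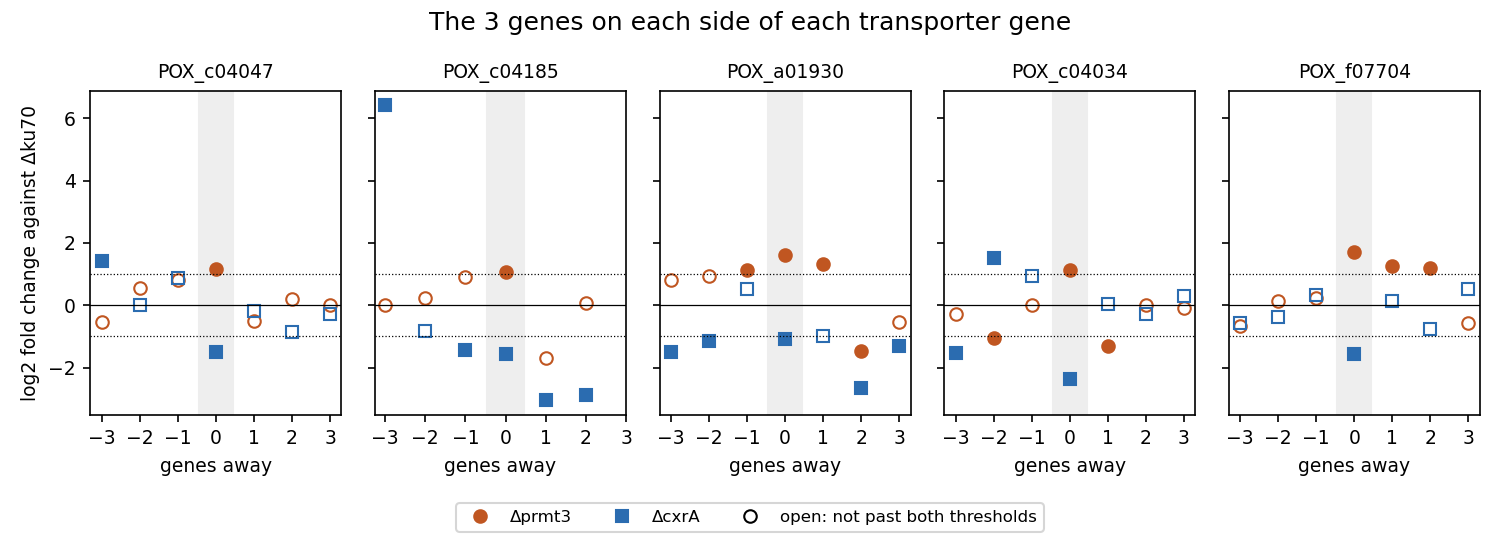
Log2 difference from Δku70 of each transporter (position 0, shaded) and of the 3 genes on each side, with filled symbols past both thresholds and dotted lines at a difference of 1. Filled orange symbols above 1 stand beside POX_a01930 and POX_f07704, and the value above 6 at POX_c04185 belongs to POX_c04182, listed at 0 in Δku70, whose size depends on the added 0.1.

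Enzymes that release sugars from cellulose and hemicellulose were counted over the study's annotation, which again lists genes the study called on these libraries. Of 43 enzyme genes, 13 were called higher, 5 lower and 25 neither in Δprmt3, with a median log2 difference of 0.48. In ΔcxrA, 3 were higher, 33 lower and 7 neither, with a median of -1.88. Both calls, higher in Δprmt3 and lower in ΔcxrA, held for 6 of the 43. They held for 5 of the 41 listed transporter genes and for 0.492% of all features. Of all features, 3.59% were called higher and 7.51% lower in Δprmt3, and 16.4% higher and 13.2% lower in ΔcxrA. Those shares cover genes called or not, while the enzyme list holds genes the study called. Neither of the 2 cellobiohydrolase genes, whose product is cellobiose, was called in Δprmt3, and both were lower in ΔcxrA. Of 9 endoglucanase genes 1 was higher in Δprmt3 and 8 were lower in ΔcxrA. Of 10 β-glucosidase genes 3 were higher and 2 lower in Δprmt3, with 1 higher and 8 lower in ΔcxrA. Among enzymes of hemicellulose, 3 of 9 xylanase genes were higher and 0 lower in Δprmt3, with 0 higher and 8 lower in ΔcxrA. Of 6 arabinofuranosidase genes 5 were higher and 1 lower in Δprmt3, with 1 higher and 2 lower in ΔcxrA. Of 4 β-xylosidase genes 1 was higher and 1 lower in Δprmt3, with 1 higher and 2 lower in ΔcxrA. Of 3 lytic polysaccharide monooxygenase genes 0 were higher and 1 lower in Δprmt3, with 0 higher and 3 lower in ΔcxrA.

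The genes most like each transporter over the 9 libraries were sought by the Pearson correlation of log2(scaled FPKM + 0.1) among the 7222 genes with an identifier whose mean FPKM reached 10. For POX_c04047 they were POX_b02729 (0.9987), POX_c04185 (0.9981) and POX_b03272 (0.9967), and for POX_c04185 they were POX_d05061 (0.9982), POX_c04047 (0.9981) and POX_b02729 (0.9976). Each candidate cellodextrin transporter was thus the second most alike gene of the other. These correlations mostly follow the strain means, whose directions were fixed by the choice of the transporters. The closeness of the chosen transporters to each other is therefore given as a description and is not independent evidence that they vary together. POX_b02729, annotated as a hypothetical protein, had means of 692 scaled FPKM in Δku70, 1697 in Δprmt3 and 216 in ΔcxrA.

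POX_a01930 and POX_f07704 were also among the nearest genes of each other (0.9951), and this was the highest value for POX_a01930. The same limit from the choice of the transporters holds for this pair. The other genes nearest to POX_a01930 were POX_b02724 (0.9934) and POX_c04101 (0.9906), and those nearest to POX_f07704 were POX_f08047 (0.9953) and POX_e06198 (0.9913). None of the genes nearest to POX_c04034 is annotated here as a transporter, and they were POX_c04325 (0.9964), POX_b02397 (0.9963) and POX_b02368 (0.9957). POX_b02368, a hypothetical protein, had log2 differences of 1.29 in Δprmt3 and -2.58 in ΔcxrA. The correlation measures the shape over libraries and not the size, since POX_b03272 had differences of only 0.22 and -0.35.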

How the data were processed

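Mycelium RNA of 3 strains with 3 libraries each was analysed. Per the labels and the study's methods, the authors mapped reads with HISAT2, quantified genes with RSEM and deposited FPKM; a genome build was not given in the sources used here. The files hold no read counts, so no depth or counting interval is given.

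Each library was divided by a scale factor, the median of its ratios to the per-feature geometric mean, taken from the 9335 features detected in all libraries. The values log2(scaled FPKM + 0.1) of 10578 features, all those above 0 in any library, were fitted with limma 3.58.1 (trend) in R 4.3.3, with 1 mean per strain over all 9 libraries. Called means an adjusted p (Benjamini-Hochberg) below 0.05 and an absolute log2 difference over 1, the study's thresholds. Folds against Δku70 are the fitted log2 differences taken off the log scale, so they can differ slightly from the ratio of the printed means. Ratios of the mean in Δprmt3 to that in ΔcxrA are on scaled FPKM without the added 0.1. The fit was tested on simulated data.

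The text names the 5 transporters, their neighbours (3 on each side) called in either mutant, the 3 genes most correlated with each, the deleted genes, and others where it says so. The members and lists were chosen with earlier results of these data known. Gene annotations came from the study's lists of called genes, of which 1 was read in part, so genes outside them have none here. Neighbours came from RefSeq assembly ASM172317v3, in which 9718 of 9822 identifiers were found, and no coordinates are given since the build of the files is unknown. The study's own fold changes were not used. Protein and promoter sequences were not analysed here. Alternatives were other scalings, pseudocounts, filters, libraries in the fit, a replicate block, a robust variance and leaving out each library.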

Additional observations from a re-analysis of the deposited data

How the results depend on the processing

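No alternative turned the direction of any of the 5 transporters in either mutant. Of 374 comparisons of a result with an alternative, 359 stayed within the tolerance, which was 1.5 times for a count and 1 SD between replicates for a log2 difference, and 15 moved beyond it. A value within it can still be short of a threshold. On FPKM without further scaling, the fits gave 2745 features higher and 917 lower in ΔcxrA, against 1737 and 1400 with scaling, and in Δprmt3 296 higher and 932 lower, against 380 and 794. With that setting the log2 differences in ΔcxrA were -1.10 for POX_c04047, -1.16 for POX_c04185, -0.69 for POX_a01930, -1.97 for POX_c04034 and -1.17 for POX_f07704, and 2 of the 5 were past a difference of 1, and past both thresholds, in both mutants. Under quantile normalization POX_c04047 was at 0.26 in Δprmt3 and -0.98 in ΔcxrA and POX_c04185 at -1.02 in ΔcxrA, and again 2 were past the difference of 1 and past both thresholds. Leaving out the scale factors shifted the log2 differences of the 5 genes in a mutant by nearly the same amount. This follows from the method, since a factor applies to all values of a library. Quantile normalization instead acts by rank within a library. Why the scale factors differed between the strains was not tested. With 1 library left out, 4 to 5 of the 5 were past the difference of 1 and past both thresholds in both mutants, and 4 to 8 neighbours were called in Δprmt3, with 4 without replicate 3 of Δku70. Whether the replicate numbers pair the samples is not known from the labels. The 9 correlations of same-numbered deviations ran from -0.041 to 0.049, which shows no shared shift but cannot show that the samples were unpaired. With the replicate number as a block, 1114 features were called in Δprmt3 and 3117 in ΔcxrA, against 1174 and 3137, and 5 and 11 neighbours, and no transporter lost a call. The planned counts over transporters related by protein sequence, and the promoter motifs, were not run because the protein and promoter sequences were not used here. FPKM without read numbers limit what can be said of weakly expressed neighbours.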
